A study of Mus musculus with 6 samples.

Results

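The hepatic bile acid transporters and the nuclear receptor axis that governs them, FXR and SHP, were examined in the livers of WT and *Pak4* liver-specific knockout (LKO) mice. The members are 10 genes of 45777 in the deposited table, taken by gene name. They were chosen with earlier results of these data known. They are the 3 canalicular exporters *Abcb11*, *Abcb4* and *Abcc2*, the 3 sinusoidal uptake carriers *Slc10a1*, *Slco1a1* and *Slco1b2*, the 2 basolateral exporters *Abcc3* and *Abcc4*, and the receptors *Nr1h4* (FXR) and *Nr0b2* (SHP). All 10 passed the filter on low counts, which left 18636 genes. Bulk liver RNA was sequenced from 3 WT mice, which were *Pak4* flox/flox without Cre, and 3 LKO mice, which were Alb-Cre; *Pak4* flox/flox. All were C57BL/6 males, 8 weeks old and fasted for 24 h, with 1 library per mouse. Both groups carry the floxed allele, and Cre, driven by the albumin promoter of hepatocytes, is present in LKO mice alone, so that the transgene and the loss of *Pak4* cannot be told apart. Fed mice were not analysed here.

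Hepatocytes take up bile acids from the portal blood across the sinusoidal membrane and secrete them across the canalicular membrane into bile, and the exporter of the canalicular step limits the rate of bile flow. A second set of exporters on the basolateral membrane returns bile acids to the blood and is known for its response to cholestasis. FXR is the nuclear receptor that binds bile acids. With its partner RXR it drives the canalicular exporter and SHP, and SHP, a nuclear receptor without a DNA-binding domain, in turn represses bile acid synthesis.

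FXR and RXR are known to bind an inverted repeat of AGGTCA with a spacer of 1 base (AGGTCANTGACCT, which is its own reverse complement, so that both strands are covered). Windows from 250 bases before the annotated start were taken from RefSeq (GRCm38.p6, the assembly that mm10 represents) for 9 of the 10 genes. The 2 members whose window came closest to this repeat are printed 5′ to 3′ on the strand of the gene. They were picked with their fold changes known. After TMM scaling *Abcb11* had the lowest and *Slco1b2* the highest log2 fold change of the members, in opposite directions. A link between the repeat and these values was not tested. The log2 fold change of *Slco1b2* was smaller and not called with total counts and below 0 on the TPM scale. Capitals mark the best match. The *Abcb11* window is chr2:69342617-69342866 on the minus strand, and the *Slco1b2* window is chr6:141629268-141629451 on the plus strand, which ends before the first annotated start of that gene.
Abcb11: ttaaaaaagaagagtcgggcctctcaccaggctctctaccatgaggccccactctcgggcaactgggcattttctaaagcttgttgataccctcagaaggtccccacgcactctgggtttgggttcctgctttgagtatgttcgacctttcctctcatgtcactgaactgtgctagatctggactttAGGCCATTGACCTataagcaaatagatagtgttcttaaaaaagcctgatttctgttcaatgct
Slco1b2: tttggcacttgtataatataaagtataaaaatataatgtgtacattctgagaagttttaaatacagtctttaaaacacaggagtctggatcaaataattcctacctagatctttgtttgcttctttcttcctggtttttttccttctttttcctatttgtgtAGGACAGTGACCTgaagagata
The match of *Abcb11* spans chr2:69342667-69342679, from 63 to 51 bases before the start, and differs from the repeat by T4C, counted from 1 at the 5′ end of the repeat. The match of *Slco1b2* spans chr6:141629430-141629442, from 88 to 76 bases before the start used, and differs by T4A. Among 32817 promoter windows of the same length, 26 (0.0792%) held a match with at most 1 mismatch. The best match had 3 mismatches in *Slc10a1* and *Slco1a1*, a level reached by 9.64% of windows. It had 4 in *Abcb4*, *Abcc2*, *Nr1h4*, *Nr0b2* and *Abcc4*, which 50% of windows reached. Sites outside these 250 bases were not searched, so a weak best match does not show that a gene lacks a site. *Slc10a1* and *Abcc4* had 2 windows each, with 3 mismatches in both windows of *Slc10a1* and 4 and 6 in those of *Abcc4*. The windows of *Nr1h4* and *Abcc4* and the second window of *Slc10a1* lie within the annotated span of these genes. A match is a description of letters in these windows, and *Abcc3* was named without a window.

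Total counts were 45934632 to 55205564 in WT and 53936281 to 59576437 in LKO mice. The libraries of the genotypes stood apart in composition. The small noncoding RNAs 7SL and 7SK took 4.55 to 5.24% and 0.499 to 0.606% of the counts in WT mice, and 11.2 to 15.8% and 2.33 to 2.63% in LKO mice. The sample labels name the same mRNA-selecting kit for all 6 mice while the study's methods name a kit for total RNA, and the part of library preparation in this gap was not tested. The TMM factors of edgeR, which rescale each library so that most genes keep their level, were 1.28 to 1.43 in WT and 0.639 to 0.816 in LKO mice. Levels are given as CPM, read counts brought to the same scaled library total, and as TPM, which the authors corrected for gene length and set to the same sum in each mouse. The median log2 fold change of LKO over WT of all genes was −0.039 after TMM, −0.90 with total counts and −0.79 on log2(TPM + 1), so every direction below is given with the scaling it rests on. *Pak4* had 268, 210 and 271 read counts in WT mice against 85, 52 and 149 in LKO mice, with a log2 fold change of −0.71 (edgeR quasi-likelihood test, adjusted p = 0.1) after TMM and of −1.54 (adjusted p = 0.0056) with total counts. Without LKO mouse 3 it was −1.08 (adjusted p = 0.015) after TMM.

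Relative to the other genes of the liver, the uptake carriers *Slco1b2* and *Slco1a1* and the receptor *Nr1h4* were higher in LKO mice after TMM, and the canalicular exporter *Abcb11* and the basolateral exporter *Abcc3* were lower. *Abcb11* and *Abcc3* were also lower with total counts and on the TPM scale. The rises of *Slco1b2*, *Slco1a1* and *Nr1h4* were not called with total counts, where their log2 fold changes were 0.49, 0.054 and 0.28, and were below 0 on the TPM scale. After TMM, 3 of the 10 members were called higher, where 19.6% of all genes were, and 2 were called lower, where 20.5% of all genes were (adjusted p under 0.05 over all genes tested). With total counts no member was called higher (6.26% of all genes) and 5 were called lower (51.4%), adding *Abcb4*, *Abcc2* and *Nr0b2*. Switching the count scaling moves all genes by nearly the same amount. The place of a member among all genes was therefore bound to stay similar, and it is given as a description. *Abcb11* had a lower log2 fold change than 87.3% of all genes and *Slco1b2* a higher one than 89.6%, and these percentiles, 12.7 and 89.6 after TMM, were 12.9 and 89.4 with total counts.

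**Figure D1:**
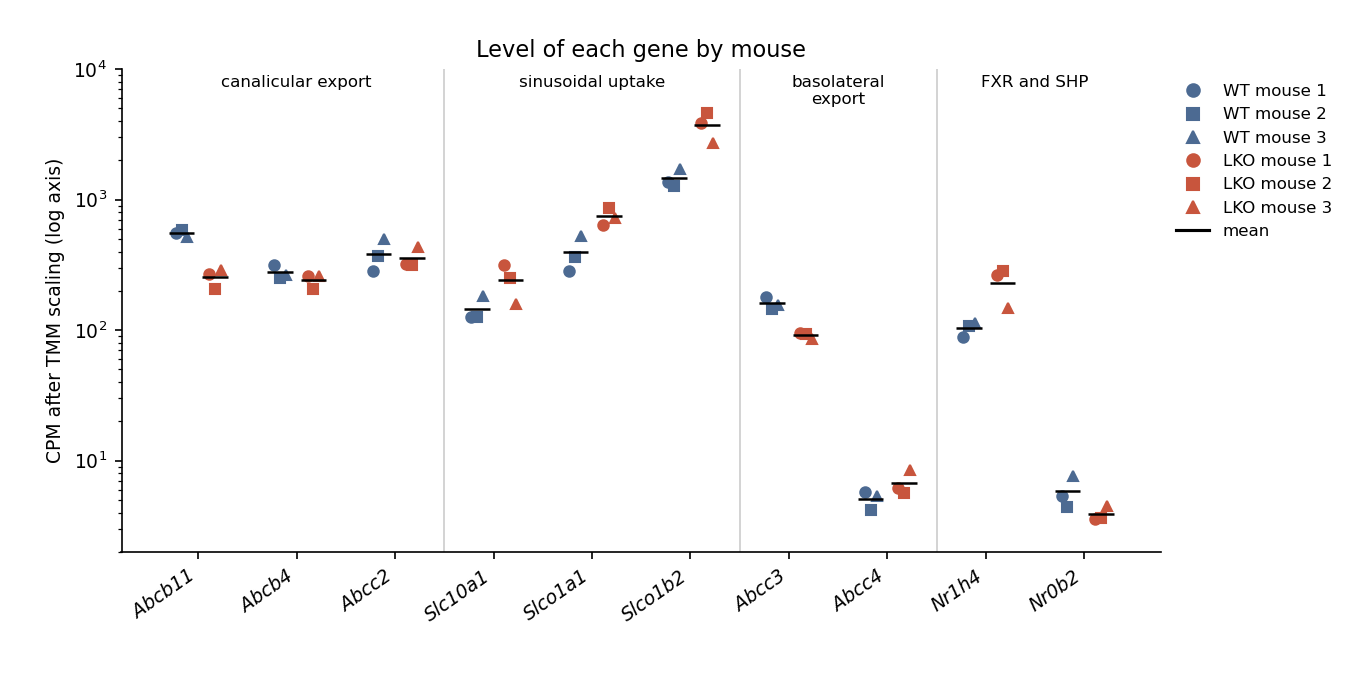
Level of each of the 10 genes in each mouse, in CPM after TMM scaling on a log axis, with WT mice in blue, LKO mice in red, 1 symbol per mouse number and the mean as a bar. All 3 LKO mice sit below all 3 WT mice for *Abcb11* and *Abcc3*, and above them for *Slco1a1*, *Slco1b2* and *Nr1h4*, though the latter 3 are not called higher with total counts and are lower on average in TPM.

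*Abcb11* (Entrez gene 27413, chr2:69238282-69342616 in GRCm38.p6) encodes the bile salt export pump, the canalicular carrier of monovalent bile acids. The WT mice gave 41377, 38077 and 34294 read counts, and the LKO mice 11766, 7195 and 13376. No LKO mouse reached the lowest WT mouse, and LKO mouse 2 was the lowest of all. After TMM the level was 552 ± 31.8 CPM in the WT and 254 ± 43 CPM in the LKO group (mean ± SD, n = 3 each). The log2 fold change was −1.12 (SE 0.18, 95% interval −1.54 to −0.70, edgeR quasi-likelihood test, adjusted p = 0.0021), a 2.17-fold lower level. In TPM it stood at 222, 250 and 196 in WT and at 40.1, 23.1 and 45 in LKO mice, a 6.17-fold lower mean. With total counts the log2 fold change was −1.97 (adjusted p = 2.7e-04), which is 1.07 below the median of all genes on that scale. It stayed between −1.22 and −0.99 when each mouse was left out in turn and was called in all 6 of these fits.

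The other canalicular exporters were not called after TMM. *Abcb4* (Entrez 18670, chr5:8893614-8959226), the floppase that delivers phosphatidylcholine to bile, had read counts of 23624, 16402 and 17522 in WT and of 11427, 7161 and 12055 in LKO mice. The counts did not overlap, but after TMM the levels did, at 277 ± 34.8 CPM in the WT and 242 ± 31.7 CPM in the LKO group. The log2 fold change was −0.20 (95% interval −0.60 to 0.20, adjusted p = 0.4) after TMM and −1.04 (adjusted p = 0.0034) with total counts. *Abcc2* (Entrez 12780, chr19:43782308-43838332), the canalicular pump for conjugated bilirubin and other organic anions, had 21180, 24394 and 32825 read counts in WT and 14037, 10924 and 20129 in LKO mice. Within each genotype, mouse 3 was the highest. The level after TMM was 384 ± 107 CPM in the WT and 356 ± 68.9 CPM in the LKO group, and the log2 fold change was −0.11 (95% interval −0.67 to 0.44, adjusted p = 0.74). Without WT mouse 3 it was 0.11. With total counts it was −0.96 (adjusted p = 0.011), close to the shift of the median gene.

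Among the uptake carriers, *Slco1b2* (Entrez 28253, chr6:141629452-141686646), a carrier of unconjugated bile acids and of many drugs, was the most abundant member in each of the 6 mice on the TPM scale. It had 101271, 83364 and 114058 read counts in WT and 170657, 159906 and 126401 in LKO mice. These did not overlap, but they are not corrected for library depth. LKO mouse 3 had 59576437 total counts and WT mouse 3 had 51585905, so the gap between these mice depends on depth. After TMM *Slco1b2* was at 1452 ± 239 CPM in the WT and 3732 ± 934 CPM in the LKO group. Its log2 fold change was 1.36 (SE 0.27, 95% interval 0.74 to 1.98, adjusted p = 0.0049). It was called in each fit that left out 1 mouse. With total counts the log2 fold change was 0.49 (adjusted p = 0.083), which is 1.39 above the median gene on that scale. In TPM the genotypes overlapped, with 808, 813 and 969 in WT and 862, 762 and 633 in LKO mice, and the difference turned to −0.20 on log2(TPM + 1) (limma, adjusted p = 0.32).

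*Slco1a1* (Entrez 28248, chr6:141907281-141946962), an organic anion carrier of rodent liver, had 21139, 23931 and 35070 read counts in WT and 28293, 30323 and 33696 in LKO mice. The counts of the genotypes overlapped through WT mouse 3, while the levels after TMM, 284, 366 and 530 CPM in WT and 643, 869 and 729 CPM in LKO mice, did not. The log2 fold change was 0.93 (SE 0.26, adjusted p = 0.021) after TMM, 0.054 (adjusted p = 0.85) with total counts and −0.58 (limma, adjusted p = 0.043) on log2(TPM + 1). The call after TMM was lost without WT mouse 1 (log2 fold change 0.74, adjusted p = 0.069), without WT mouse 2 (0.85, adjusted p = 0.069) and without LKO mouse 2 (0.80, adjusted p = 0.067). *Slc10a1* (Entrez 20493, chr12:80953185-80968705) encodes NTCP, the sodium-dependent carrier of conjugated bile acids. It gave 9426, 8279 and 12118 read counts in WT against 13832, 8674 and 7413 in LKO mice, and its levels after TMM were 126, 127 and 183 CPM against 314, 249 and 160 CPM. LKO mouse 3 lay within the WT range and the other two LKO mice above it. The log2 fold change of 0.73 (95% interval 0.12 to 1.34) missed the threshold (adjusted p = 0.059) and rose to 0.95 (adjusted p = 0.011) without LKO mouse 3. It was −0.12 (adjusted p = 0.73) with total counts and −0.84 (adjusted p = 0.021) on log2(TPM + 1).

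The basolateral exporters are both ABC pumps that carry bile acids and glucuronides back to blood. *Abcc3* (Entrez 76408, chr11:94343295-94393017) had read counts of 13527, 9467 and 10340 in WT and of 4217, 3261 and 3960 in LKO mice. The highest LKO mouse was less than the lowest WT mouse. Its level went from 161 ± 18.8 CPM to 91.6 ± 5.33 CPM, with a log2 fold change of −0.81 (SE 0.15, 95% interval −1.15 to −0.47, adjusted p = 0.0036). It was −1.67 (adjusted p = 1.6e-04) with total counts, and between −0.91 and −0.71 when each mouse was left out in turn, with a call in each fit. *Abcc4* (Entrez 239273, chr14:118482692-118707856) was the least abundant member, with 274 to 429 read counts in WT against 199 to 391 in LKO mice. The level was 5.11 ± 0.818 CPM in the WT and 6.78 ± 1.47 CPM in the LKO group and overlapped, with a log2 fold change of 0.41 (95% interval −0.098 to 0.92, adjusted p = 0.18) after TMM and of −0.44 (adjusted p = 0.18) with total counts. *Abcb4*, *Abcc3*, *Abcc4* and *Slco1a1* overlap other annotated genes, among them *Gm17936*, *Gm51871*, *Gm41247* and *Gm30843*, and the sources do not state whether reads were assigned by strand, so part of their counts is uncertain.

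Of the receptors, FXR was called higher after TMM and SHP was not called. *Nr1h4* (Entrez 20186, chr10:89454234-89533645) had 6664, 7089 and 7567 read counts in WT and 11581, 9919 and 6825 in LKO mice. After TMM the levels were 89.4, 108 and 114 CPM in WT and 263, 284 and 148 CPM in LKO mice, without overlap and with LKO mouse 3 nearest to the WT mice. The log2 fold change was 1.16 (SE 0.25, 95% interval 0.58 to 1.73, adjusted p = 0.0077) after TMM, 0.28 (adjusted p = 0.35) with total counts and −0.44 (limma, adjusted p = 0.091) on log2(TPM + 1). *Nr0b2* (Entrez 23957, chr4:133553376-133556686) had 403, 290 and 508 read counts in WT and 158, 127 and 207 in LKO mice. The counts did not overlap, while the levels after TMM, 5.84 ± 1.67 CPM in the WT and 3.9 ± 0.498 CPM in the LKO group, did by LKO mouse 3 and WT mouse 2. Its log2 fold change was −0.58 (95% interval −1.14 to −0.015, adjusted p = 0.095) after TMM and −1.43 (adjusted p = 0.002) with total counts. In TPM it was 4.26-fold lower, at 8.24, 7.26 and 11.1 in WT and 2.04, 1.55 and 2.65 in LKO mice.

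**Figure D2:**
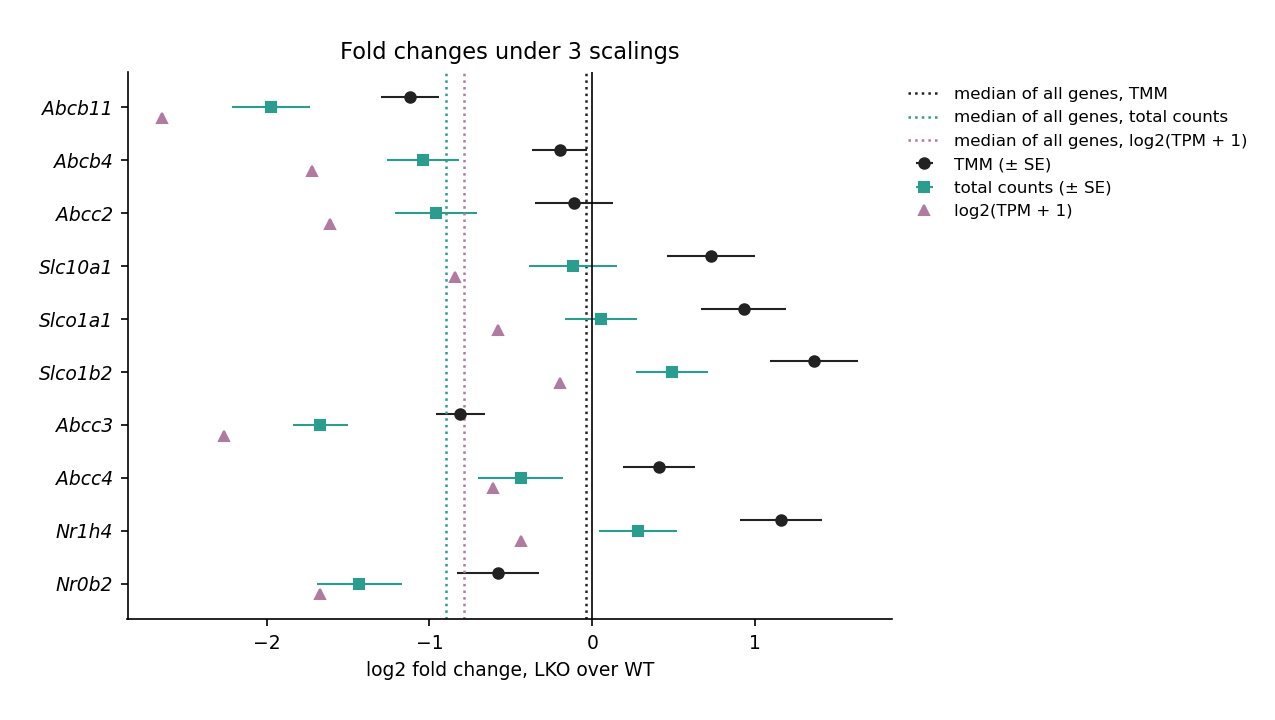
Log2 fold change of LKO over WT for each member under TMM, total counts and log2(TPM + 1), with standard errors for the count fits and dotted lines at the median of all genes tested under each scaling. The order of the members is much the same in each scaling while the zero line shifts, so that *Slc10a1* and *Abcc4* change sign between TMM and total counts and *Slco1a1*, *Slco1b2* and *Nr1h4* between TMM and TPM, whereas *Abcb11* and *Abcc3* stay below 0.

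On log2(TPM + 1), 8 of the 10 members were called lower, where 71.5% of all genes were, and none higher, where 2.43% were. Counted without a model, the levels after TMM did not overlap between genotypes for 2 members that were lower (27.9% of all genes) and for 3 that were higher (26.1%). The TPM did not overlap for 7 members, all lower in LKO mice (74.9% of all genes), and for none that was higher (2.98%). The median log2 fold change of the members was 0.15 after TMM, −0.70 with total counts and −1.23 on log2(TPM + 1). The counts of members called therefore lay near the shares of all genes.

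A ratio of the counts of 2 members within 1 mouse does not depend on how libraries are scaled, and 6 pairs were compared. The log2 ratio of *Abcb11*, the exporter of bile acids, to *Slc10a1*, their uptake carrier, was 1.95 ± 0.39 in WT mice and 0.12 ± 0.64 in LKO mice, where it was −0.23, −0.27 and 0.85. All LKO mice lay below all WT mice, with a mean difference of −1.83 or 3.55-fold (exact permutation test, two-sided here and below, p = 0.1, which is the lowest value 3 against 3 mice can give, adjusted p = 0.15 over the 6 pairs). The log2 ratio of *Nr0b2* to *Nr1h4* was −4.05, −4.61 and −3.90 in WT and −6.20, −6.29 and −5.04 in LKO mice, a 3.15-fold lower ratio without overlap (exact permutation test, p = 0.1, adjusted p = 0.15). LKO mouse 3 was the closest to the WT mice in both ratios.

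*Abcb4* and *Abcb11*, the lipid and bile acid pumps whose products form mixed micelles in bile, also differed in their ratio. Their log2 ratio went from −0.81, −1.22 and −0.97 in WT to −0.042, −0.0068 and −0.15 in LKO mice, so that in LKO mice both had near equal counts (difference 0.93, 1.91-fold, no overlap, exact permutation test, p = 0.1, adjusted p = 0.15). The ratio of *Abcc3* to *Abcc2* was 0.72 lower in LKO mice on the log2 scale, with means of −1.23 ± 0.52 in WT and −1.94 ± 0.35 in LKO mice and no overlap (exact permutation test, p = 0.1, adjusted p = 0.15). The difference was −0.43 without WT mouse 1 and −0.51 without LKO mouse 3. The ratio of *Abcc4* to *Abcc2* (exact permutation test, p = 0.4, adjusted p = 0.4) and that of *Slco1a1* to *Slco1b2* (exact permutation test, p = 0.2, adjusted p = 0.24) overlapped between genotypes.

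**Figure D3:**
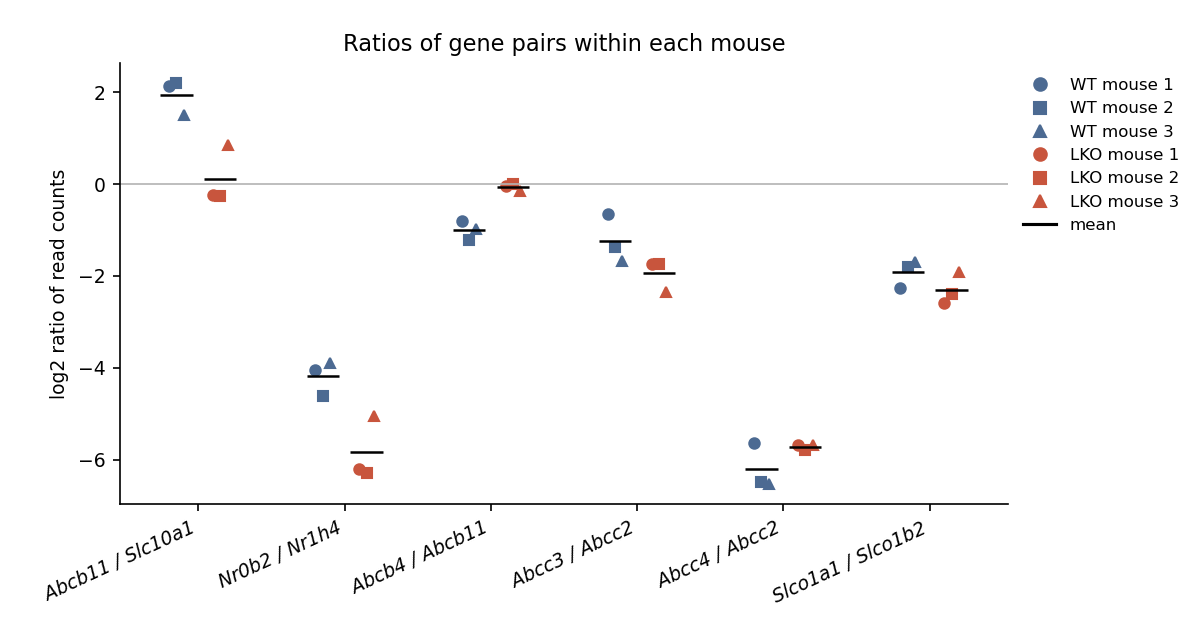
Log2 ratio of read counts of 6 pairs of members within each mouse, with WT in blue, LKO in red and the mean as a bar. The ratios of *Abcb11* to *Slc10a1*, *Nr0b2* to *Nr1h4* and *Abcc3* to *Abcc2* are lower and that of *Abcb4* to *Abcb11* is higher in all LKO mice than in all WT mice, and the other 2 pairs overlap.

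The makeup of the transporter mRNA also differed between the genotypes. Of the summed TPM of the 8 transporters, the canalicular exporters held 29.5, 30.4 and 24.9% in WT and 10.6, 7.89 and 15.5% in LKO mice. The uptake carriers held 66.1, 66.1 and 72% in WT and 88.3, 91.1 and 83.1% in LKO mice, and the basolateral exporters went from 3.66 ± 0.7% to 1.19 ± 0.187%. None of these 3 shares overlapped between genotypes, and LKO mouse 3 was the nearest to WT in each. The exact permutation test gave p = 0.1 for each share, the smallest possible.

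Within the uptake carriers, the larger share in LKO mice was that of *Slco1b2*, which made up 48.3 ± 1.69% in WT and 67.7 ± 4.99% in LKO mice. *Slc10a1* held 9.12 ± 0.755% and 8.29 ± 1.95%, and *Slco1a1* 10.7 ± 2.08% and 11.5 ± 2.2%, with overlap for both. Among the exporters, *Abcb11* went from 12.6 ± 2.27% to 3.27 ± 1.13%, while *Abcb4* went from 7.97 ± 1.75% to 3.88 ± 1.16% and *Abcc2* from 7.73 ± 1.3% to 4.17 ± 1.65%. A share is bound to fall where another rises, so these shares describe the balance among the 8 genes and not the amount of any 1 of them. The summed TPM itself was 1649, 1756 and 1959 in WT and 1262, 1054 and 1014 in LKO mice.

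**Figure D4:**
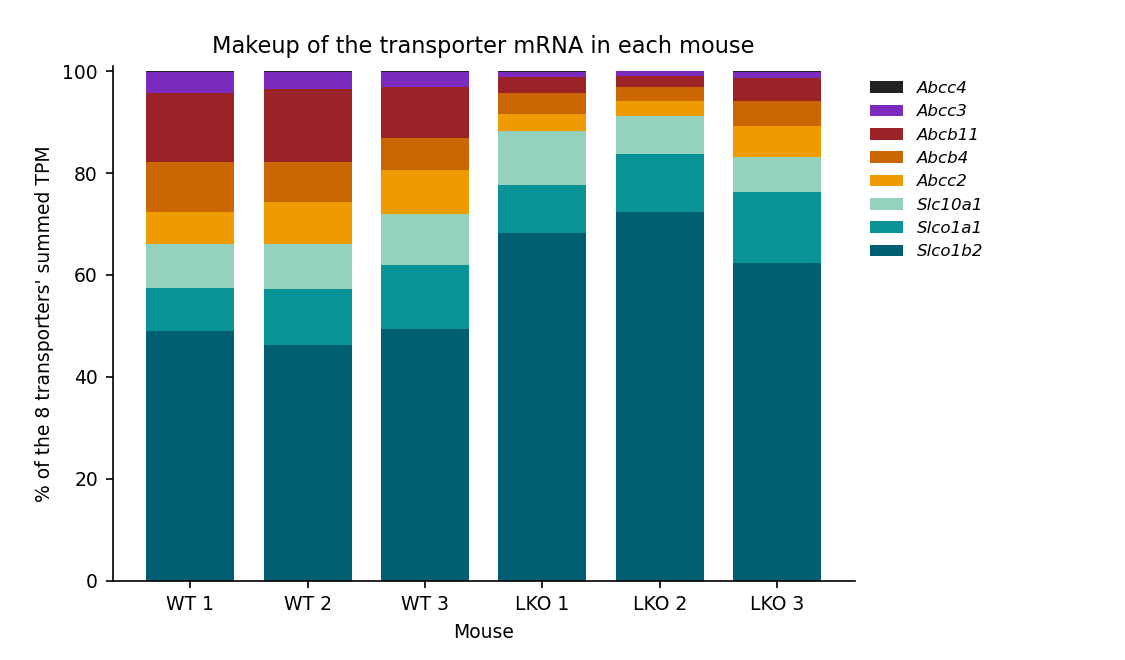
Percent of the summed TPM of the 8 transporters held by each gene in each mouse, as stacked bars from 0 to 100. The uptake carriers at the bottom of each bar (teal) cover 66.1 to 72% in WT and 83.1 to 91.1% in LKO mice, and the *Abcb11* segment (dark red) shrinks from 9.98 to 14.2% to 2.19 to 4.44%.

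In the order of TPM, *Slco1b2* was first in all mice, and *Abcc3*, *Nr0b2* and *Abcc4* came last, in this order. In WT mice *Abcb11* came next to *Slco1b2* by its mean, followed by *Slco1a1*, *Slc10a1*, *Abcb4*, *Abcc2* and *Nr1h4*, although each neighbouring pair from *Abcb11* to *Nr1h4* overlapped. In LKO mice the order was *Slco1a1*, *Slc10a1*, *Nr1h4*, *Abcc2*, *Abcb4* and *Abcb11*, again with overlap between neighbours. *Abcb11* ranked 2, 2 and 4 in WT mice and 7 in each LKO mouse. *Nr1h4* ranked 7 in each WT mouse and 4, 4 and 5 in LKO mice.

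Markers of other liver cells moved as well, and their part in these results was not tested. In bulk liver, fewer cells of a type and less RNA per cell cannot be told apart. The summed level of 7 hepatocyte markers was 33438 to 36553 CPM after TMM in WT and 88809 to 105166 CPM in LKO mice, with 4 called higher (*Alb*, *Apoa1*, *Ahsg* and *Fgb*) and *Ttr* called lower. The 8 cholangiocyte markers summed to 143 to 192 CPM in WT and 43.6 to 107 CPM in LKO mice. Most of this sum was *Slc10a2*, the apical sodium-dependent bile acid carrier of cholangiocytes, at 124 ± 15.8 CPM in WT against 61.5 ± 34.2 CPM in LKO mice (log2 fold change −1.01, adjusted p = 0.087), and *Spp1*, at 39.6 ± 8.81 against 18.7 ± 7.44 CPM. *Sox9*, *Epcam* and *Krt19* had log2 fold changes of 0.11, 0.048 and 1.00 and were not called. In WT mice *Slc10a2* was at 49.2 to 67.1 TPM, against 0.65 to 0.715 for *Sox9*, 0.255 to 0.555 for *Epcam* and 0.262 to 0.3 for *Krt19*. The sum therefore mostly follows *Slc10a2*, and which cells its reads came from was not tested. Of the list, 1 of 6 tested was called (*Spp1*, log2 fold change −1.09, adjusted p = 0.019), and the defining keratins were at or near 0, with 13 to 15 counts of *Krt19* in WT and 11 to 24 in LKO mice and with *Krt7* at 0 in WT mice 2 and 3. Endothelial markers summed to 241 to 288 CPM in WT and 423 to 448 CPM in LKO mice (5 of 7 called higher), and Kupffer cell and macrophage markers to 270 to 409 and 443 to 863 CPM (4 of 7 higher). Stellate cell and fibroblast markers summed to 285 to 335 and 577 to 832 CPM (2 of 7 higher, 1 lower), and lymphocyte markers to 43.1 to 64.8 and 28 to 42.6 CPM (1 of 6 lower). Scaled by total counts, the endothelial, macrophage and stellate sums overlapped between genotypes.

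The other genes of the pathway were counted in lists. Each count stands beside the shares of all genes tested. After TMM, 19.6% of these were called higher and 20.5% lower, and with total counts 6.26% and 51.4%. Of 18 other bile acid and organic anion transporters, 15 were tested, with 2 called higher and 5 lower after TMM (1 higher and 10 lower with total counts) and a median log2 fold change of −0.24. *Slco1a4*, a hepatic and brain carrier of bile acids and cardiac glycosides next to *Slco1a1* in the same gene cluster, had 1734, 801 and 1911 read counts in WT and 26540, 38892 and 56236 in LKO mice. The lowest LKO mouse lay far above the highest WT mouse. The level went from 21.5 ± 8.47 CPM to 978 ± 329 CPM, with a log2 fold change of 5.51 (SE 0.43, adjusted p = 2.1e-04) after TMM, 4.64 (adjusted p = 8.7e-05) with total counts and 3.86 on log2(TPM + 1). In TPM it was at 12.2, 6.92 and 14.3 in WT and at 118, 164 and 250 in LKO mice, beside 119, 120 and 140 for *Slco1a1* in the same LKO mice. The genes of the *Slco1a* cluster are similar in sequence, and how reads that fit several of them were counted is not given in the sources used here. *Slco1a5* and *Slco1a6* were not tested, with counts above 0 in 1 mouse each.

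The multidrug exporter *Abcb1a* (log2 fold change −2.47, adjusted p = 2.4e-04), the organic anion carriers *Slc22a7* (−2.19, adjusted p = 0.003) and *Slco2b1* (−1.30, adjusted p = 6.3e-04) fell, and they were also lower with total counts and on the TPM scale. Of the organic solute transporter, which exports bile acids across the basolateral membrane, *Slc51a* had 0 counts in every mouse and *Slc51b* had 12 to 32 in WT against 0 to 21 in LKO mice. Its direction changed with the scaling and with the mouse left out, and no difference was detectable at this depth (edgeR quasi-likelihood test, adjusted p = 0.91).

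Of 10 scaffold and trafficking proteins of the canalicular membrane, 5 were called lower and 1 higher after TMM (9 lower and none higher with total counts), with a median of −0.50. Of all genes tested, 20.5% were called lower after TMM and 51.4% with total counts. *Slc9a3r1*, which encodes the PDZ scaffold NHERF1 (−1.65, adjusted p = 0.0038), *Pdzk1*, a second PDZ scaffold (−1.36, adjusted p = 0.0079), and *Myo5b*, the motor of apical recycling endosomes (−1.30, adjusted p = 5.1e-04), fell, and they did so with total counts too (log2 fold changes of −2.54, −2.22 and −2.16). *Rab11a*, the GTPase that works with MYO5B, was 1.02 (adjusted p = 0.001) after TMM, 0.15 with total counts and −0.51 on log2(TPM + 1).

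Of 25 partners and coregulators of FXR, 23 were tested, with 3 called higher and 3 lower after TMM (none higher and 17 lower with total counts) and a median of −0.059. The 6 calls shrank to 2, 1, 3 and 3 without WT mouse 1, WT mouse 2, WT mouse 3 and LKO mouse 2. *Rxra*, the partner of FXR on DNA, had 8420, 7157 and 9467 read counts in WT and 4357, 3095 and 3457 in LKO mice, with a log2 fold change of −0.48 (adjusted p = 0.057) after TMM and −1.33 (adjusted p = 5.6e-04) with total counts. *Nr5a2*, which encodes LRH-1, the receptor that SHP represses, was 0.11 (adjusted p = 0.72), and *Hnf4a*, a hepatocyte regulator of these carriers, was −0.30 (adjusted p = 0.42), or −0.66 (adjusted p = 0.042) without LKO mouse 3.

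*Ppargc1a*, a coactivator induced by fasting, was called higher (2.56, adjusted p = 0.017), but its read counts of 833, 627 and 5077 in LKO mice against 449 to 643 in WT mice put most of the size in LKO mouse 3, without which the log2 fold change was 1.16 (adjusted p = 0.0026). The call was lost without WT mouse 1, 2 or 3 (adjusted p = 0.051, 0.054 and 0.061) and with total counts (1.73, adjusted p = 0.054). The xenobiotic receptor gene *Nr1i3* (1.08, adjusted p = 0.024) and the deacetylase *Sirt1* (0.74, adjusted p = 0.027) were called higher after TMM, and *Hdac3* (−0.72, adjusted p = 0.035) was called lower. *Nr1i3* was at 0.23 (adjusted p = 0.56) with total counts and at −0.52 on log2(TPM + 1), and *Sirt1* at −0.12 and −0.69. Each of these calls was lost with single mice left out, namely that of *Nr1i3* without WT mouse 1, WT mouse 2, LKO mouse 1 or LKO mouse 2 (adjusted p = 0.071 to 0.082), that of *Sirt1* without WT mouse 1, 2 or 3 (0.076 to 0.079), and that of *Hdac3* without WT mouse 1, 2 or 3 or LKO mouse 2 (0.051 to 0.1). *Ncoa3* (−0.71, adjusted p = 0.02) and the corepressor *Ncor1* (−0.67, adjusted p = 0.0075) were also called lower after TMM. With total counts they were at −1.58 (adjusted p = 6.6e-04) and −1.53 (adjusted p = 3.9e-04). Their values with single mice left out are not given here.

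**Figure D5:**
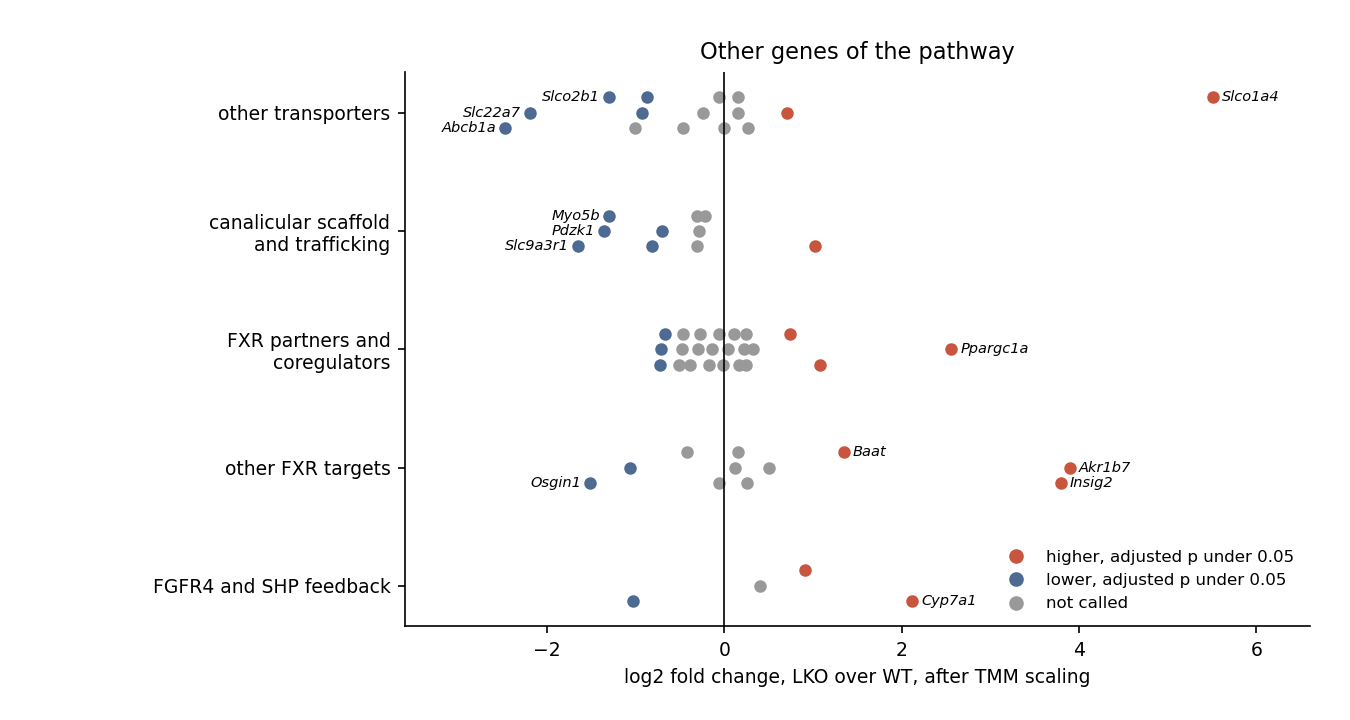
Log2 fold change of LKO over WT after TMM for the tested genes of 5 lists, 1 point per gene, red where called higher, blue where called lower and grey where not called. *Slco1a4* at 5.51 stands far to the right of the other transporters, and the scaffold and trafficking list leans to the left with 5 genes called lower. Of all genes tested, 20.5% were called lower after TMM. With total counts the median of all genes moves to −0.90 and the points shift with it.

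The other known FXR target genes did not share 1 direction. Of 12, 11 were tested, with 3 called higher and 2 lower after TMM (2 higher and 6 lower with total counts) and a median of 0.16. *Insig2*, a brake on sterol synthesis, had 4185 to 13571 read counts in WT against 45084 to 104624 in LKO mice (log2 fold change 3.80, adjusted p = 4.9e-04, and 2.94, adjusted p = 6.5e-04, with total counts). *Akr1b7*, an aldose reductase, had 7 to 13 and 42 to 157 (3.90, adjusted p = 0.0014, and 3.03, adjusted p = 0.0027, with total counts). *Baat*, which joins bile acids to taurine and glycine, was 1.35 (adjusted p = 0.0046) after TMM, 0.45 (adjusted p = 0.098) with total counts and −0.26 on log2(TPM + 1). *Osgin1*, an oxidative stress response gene, was −1.51 (adjusted p = 0.039), a call lost without WT mouse 1, 2 or 3 or LKO mouse 2 (adjusted p = 0.055 to 0.12), and −2.40 (adjusted p = 0.0025) with total counts.

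Of the feedback on synthesis, which SHP and the intestinal hormone FGF15 exert, 4 of 5 genes were tested and 2 were called higher and 1 lower after TMM (1 and 1 with total counts). *Cyp7a1*, the rate-limiting enzyme of bile acid synthesis, was higher, at 166 ± 24.5 CPM in the WT and 725 ± 120 CPM in the LKO group (log2 fold change 2.12, SE 0.20, adjusted p = 3.1e-04), and was also higher with total counts (1.27, adjusted p = 9.6e-04) and on log2(TPM + 1) (0.57, limma, adjusted p = 0.024). *Cyp8b1*, the enzyme that sets the share of cholic acid, was 0.91 (adjusted p = 0.038) after TMM and 0.081 (adjusted p = 0.84) with total counts, and its call after TMM was lost without WT mouse 1 or 2 or any 1 of the LKO mice (adjusted p = 0.054 to 0.093). *Fgfr4*, the hepatic receptor of FGF15, fell by 1.03 on the log2 scale (adjusted p = 0.012), and by 1.88 (adjusted p = 0.0014) with total counts, and the call after TMM was lost without WT mouse 2 (−0.93, adjusted p = 0.051). Its coreceptor *Klb* was 0.40 (adjusted p = 0.16) after TMM, 0.60 (adjusted p = 0.026) without LKO mouse 2 and −0.43 (adjusted p = 0.19) with total counts. Without WT mouse 2, 1 gene of this list was called in place of 3.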

How the data were processed

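Liver RNA of 3 WT and 3 LKO mice was analysed, grouped by the genotype in the labels. The 10 members and all gene lists were chosen with earlier results of these data known. Per the submitters' processing notes, tools were bcl2fastq 2.20.0, FastQC 0.11.7, HISAT2 2.1.0, Bowtie2 2.3.4.1 and StringTie 2.1.3b on mm10. The labels name a kit that selects mRNA, the same for every mouse, and the methods a total RNA kit with removal of rRNA. Which was used was not settled here, and a preparation that differed by genotype would change every fold change between them. The authors deposited 1 table of read counts without normalization, FPKM per kilobase and fragments, and TPM scaled to a common sum. StringTie derives counts from coverage.

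Genes with more than 1 zero count were left out, as in the study. Counts were scaled by TMM and tested by quasi-likelihood in edgeR 4.0.16 (R 4.3.3), two-sided, with Benjamini-Hochberg adjustment over 18636 genes and a threshold of 0.05. The test replaces the exactTest of the study. All adjusted p-values without another tool named are from it. The depth of each library allows precision that is set by the spread over 3 mice. Alternatives were exactTest, DESeq2 1.42.0 and its size factors, upper-quartile scaling, total counts, other filters, protein-coding genes, gene length offsets (from the ratio of counts to FPKM, lowess span 0.3), the replicate block, limma 3.58.1 on log2(TPM + 1) and log2(TPM + 0.1), and leaving out each mouse. Single values were compared with exact permutation tests.

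Genes named are the members, up to 4 called genes per list with the largest log2 fold change and at least 1 CPM, *Pak4*, *Slco1a4*, *Rxra*, *Nr5a2*, *Hnf4a*, *Cyp7a1*, *Cyp8b1*, *Fgfr4*, *Klb*, *Slc51a* and *Slc51b*. Markers, *Ncoa3*, *Ncor1* and untested genes named were chosen after their values were seen. On simulated counts for 18452 genes with a log2 fold change of 2 set in 200, the test recovered 197 and made 7 false calls. The simulation set equally many genes up and down, used the same dispersion for all genes and held no shift in library composition. It therefore says nothing about the choice of scaling in these libraries. Of the Entrez numbers, 45679 matched RefSeq of GRCm38.p6. One hepatocyte marker of 8 had no matching symbol. The authors' comparisons were not part of the table.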

Additional observations from a re-analysis of the deposited data

How the results depend on the processing

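The 10 members were fitted under 19 alternatives, and 153 of the values kept direction and side of the threshold, with *Abcb11* and *Abcc3* called lower in each. Of the other values, 15 turned direction, 16 gained a call and 6 lost one. Several alternatives kept the TMM scaling and differ little from the main fit. With total counts, 0 members were called higher and 5 lower, of 1167 and 9575 genes, and 47 genes of the lists were called. On log2(TPM + 1), 0 and 8 members, 453 and 13322 of 13775 genes and 57 list genes were called, and on log2(TPM + 0.1), 0 and 8 members, 467 and 13535 of 14002 genes and 57 list genes. The log2 fold change turned with total counts for *Slc10a1* (−0.12), *Abcc4* (−0.44), *Sirt1* (−0.12), *Nr5a2* (−0.73), *Klb* (−0.43) and *Slc51b* (−0.75). With a pseudocount of 1 and of 0.1 on TPM it was −0.84 and −0.85 for *Slc10a1*, −0.58 and −0.58 for *Slco1a1*, −0.20 and −0.20 for *Slco1b2*, −0.61 and −1.05 for *Abcc4*, −0.44 and −0.44 for *Nr1h4*, −0.51 and −0.53 for *Rab11a*, −0.52 and −0.54 for *Nr1i3*, −0.69 and −0.83 for *Sirt1*, −0.26 and −0.26 for *Baat*, −0.56 and −0.57 for *Cyp8b1*, −1.28 and −1.41 for *Nr5a2*, −0.98 and −1.08 for *Klb*, and −0.64 and −1.67 for *Slc51b*. The median of all genes itself lay at −0.90, −0.79 and −1.34 under these scalings. With gene length offsets *Abcc2* was 0.047 and *Slc51b* −0.68. Leaving out each mouse gave −0.28 to 0.11 for *Abcc2*, −0.086 to 0.29 for *Nr5a2* and −0.38 to 0.76 for *Slc51b*. exactTest, DESeq2, upper-quartile scaling, a minimum of 10 counts and protein-coding genes called *Slc10a1* higher (adjusted p = 0.02 to 0.046).

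Same-numbered mice did not deviate together (r = 0.037, −0.026 and −0.074), and pairs with different numbers gave −0.063 to 0.077. These values show no pairing by number, but they cannot tell whether mice shared a litter or a batch. The study's methods call the control mice littermates without saying which mice shared a litter. With the replicate block, 3129 genes were called higher and 3302 lower, with 3 members higher and 2 lower. *Slc51b* was −0.23 with the block, and *Slc51b* and *Abcc2* were −1.04 and 0.072 with the replicate block and gene length offsets, where *Nr0b2* was called lower (−0.72, adjusted p = 0.036). The cause of these changes was not tested. The 6 within-mouse ratios kept their direction under each alternative run on them. Those of *Abcc4* to *Abcc2* and of *Slco1a1* to *Slco1b2*, which overlapped between genotypes, ranged from 0.33 to 0.78 and from −0.57 to −0.23 when each mouse was left out. The number of mice, 3 per group, limits each exact test.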
